A study of Chlamydomonas reinhardtii with 2 samples.

Results

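The most abundant stretches of the Chlamydomonas reinhardtii messenger RNA were followed along the genome in windows of 1 kb. A window was included when at least 3000 uniquely aligned reads began in it, both libraries summed, which gave 558 of 112306 windows (0.497%). Those windows held 6131668 of 11167842 reads, or 54.9%. The windows were thus chosen by the read counts of these same libraries, so their levels are described below without a test. The 3 windows just inside the limit had 3006, 3002 and 3001 reads, and the 3 just outside had 2999, 2982 and 2979.

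Chlamydomonas is a single-celled green alga that can live on acetate and on light. Both libraries came from cultures of strain 2137 kept under constant light (50 to 90 µmol photons per m2 and s, approximately) at 23 °C, in Tris-acetate-phosphate medium with a trace element supplement revised from the mineral content of the cells, after growth on plates with Hutner's trace elements and dilution 1 to 100. The strain tag of replicate 2 gives 2138, in conflict with its title, and the title was followed. Poly-A RNA was fragmented at random and read as single ends of 35 nt, giving 5380216 uniquely aligned reads in replicate 1 and 5787626 in replicate 2. No other medium was analysed here, so no condition was compared. Nothing in the labels says that the 2 libraries came from separate cultures, so a p-value between them covers their own spread only, and that spread may be technical.

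In a growing alga a small set of genes, above all those for photosynthesis and for the ribosome, is known to supply a large part of the messenger RNA. Most nuclear genes of Chlamydomonas are split into several exons, and the introns are removed before the poly-A messenger is read, so an abundant gene appears on the genome as patches of high depth separated by stretches with almost none. Poly-A selected libraries can also be read more deeply towards one end of a transcript. The deposited tables carry positions on the joined scaffolds of assembly version 3.1 but no gene, strand or sequence. The windows are therefore named by position, the genes in them were not identified, and the labelled organism was not checked against marker genes.

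The windows spanned a wide range of levels with a thin top. The median window had 7046.5 reads, or 631 RPM (uniquely aligned reads scaled to a total of 1000000). The middle 50% lay between 380 and 1204 RPM, and the extremes were 269 and 10447 RPM. The median over all windows of the assembly was 5 reads, or 0.448 RPM. By reads, 193 windows lay under 5000, 165 from 5000 to under 10000, 169 from 10000 to under 30000, and 31 at 30000 or more. The 15 highest windows held 14.8% of the reads of the 558, so most of the abundant messenger was in the 543 windows below them.

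The windows ranked 16 to 25 lay close together in level but not in their surroundings. Rank 16, at 24142001 to 24143000, had 3604 RPM in replicate 1 and 3605 RPM in replicate 2, a summed level of 3604 RPM (exact 95% Poisson interval 3569 to 3640, counting error only), with 0.448 RPM in the window before it and 2810 RPM in the window after it. Rank 17, at 49086001 to 49087000, had 3462 and 3494 RPM and stood alone, with 13.3 RPM before and 8.15 RPM after it. Rank 18, at 16018001 to 16019000, had 3480 and 3409 RPM and lay between neighbours of 369 and 407 RPM. These 3 windows show the patterns that recur below: a high window beside another, a high window on its own, and a high window with lower members on both sides. Rank 19, at 98936001 to 98937000, had 3278 and 3240 RPM. Rank 20, at 68044001 to 68045000, had 3260 and 3234 RPM. Rank 21, at 56930001 to 56931000, had 3173 and 3114 RPM. Of these, ranks 19 and 21 were part of clusters of 3 windows and rank 20 was a cluster of 1, between windows of 182 and 131 RPM. Rank 22, at 26577001 to 26578000, had 3118 and 3041 RPM. Rank 23, at 51587001 to 51588000, had 3004 and 2994 RPM. Rank 24, at 85457001 to 85458000, had 2945 and 3043 RPM. In ranks 18 to 23 replicate 1 was the higher library and in rank 24 replicate 2, by differences that did not pass the test given next. Rank 25, at 111397001 to 111398000, had 3005 and 2967 RPM, with no read in the window before it and 29.9 RPM in the window after it.

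The 2 libraries gave close levels in every one of these windows. The ratio of replicate 2 to replicate 1 was 1.00 at the median, 0.987 and 1.018 at the quartiles, and 0.895 and 1.136 at the extremes, and in 525 windows the libraries differed by at most 5%. Replicate 2 was the higher library in 283 of the 558. A two-sided exact binomial test was run on all 44135 windows with at least 10 reads in sum, with Benjamini-Hochberg adjustment, and called 0 windows, which is 0% of those tested and 0 of the 558. At an unadjusted p under 0.05 the same test gave 44 of the 558 (7.89%), 41 of the 812 windows with 1000 to 2999 reads (5.05%) and 3.98% of all other windows. Depth also differed between these sets, and its part in the shares was not tested. The most unlike of the 558, at 13151001 to 13152000, was also the one with the highest ratio: it had 309 RPM in replicate 1 and 351 RPM in replicate 2, with 1661 and 2029 reads (adjusted p = 0.598). The lowest ratio, 298 against 266 RPM, was at 35298001 to 35299000 (exact binomial test, adjusted p = 0.945). The share under 0.05 was thus largest in the 558, and the lack of adjusted calls does not show that the libraries differed by counting error only. The libraries were counted as 1 sample and summed for what follows, as in the rule that chose the windows.

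**Figure D1:**
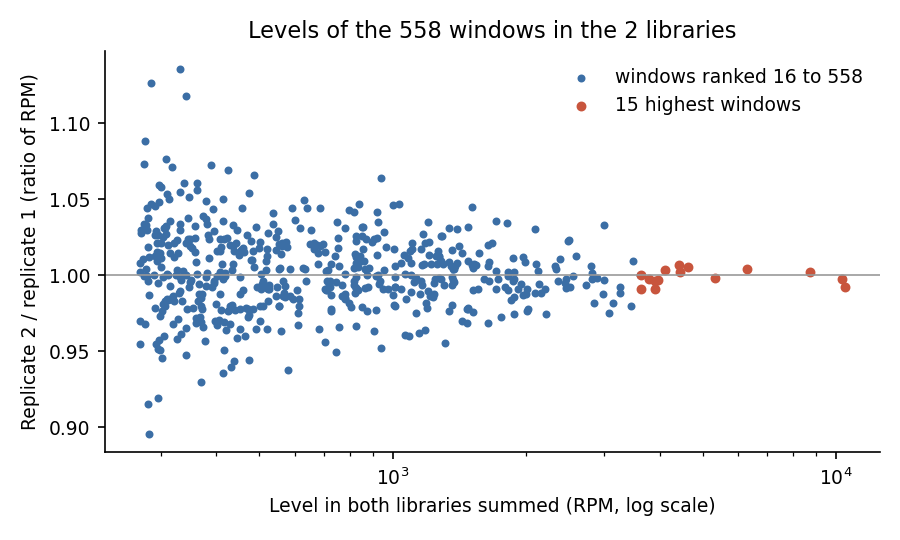
Ratio of replicate 2 to replicate 1 (linear axis) against level in RPM (log axis) for the 558 windows, 1 point per window, with the 15 highest in a second colour. All ratios lay between 0.895 and 1.136, and the spread was narrower at high levels, where more reads were counted.

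Abundant windows tended to come side by side, in small clusters spread over nearly the whole assembly. An unbroken run of adjacent windows was taken as a cluster, and the 558 windows formed 314 of them. There were 166 single windows, 75 pairs, 52 clusters of 3, 19 of 4 and 2 of 5. Thus 392 windows (70.3%) had at least 1 abundant neighbour, and 96 had abundant windows on both sides. Clusters of 2 and 3 windows held 32.8% and 32.6% of the reads of the 558 and single windows 22.1%. The median level per window was 4872 reads in single windows, 8521.5 in pairs and 9510.5 in clusters of 3, and then 6336 in clusters of 4 and 4167 in the 2 clusters of 5. Windows of a cluster may share a transcript, and separate clusters may too, so neither number counts transcripts.

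Inside a cluster the level was uneven. In the 148 clusters of 2 or more windows the highest window had a median of 2.85 times the reads of the lowest (interquartile range 1.80 to 4.39, highest 19.2). In 56 of the 73 clusters of 3 or more the highest window was the first or the last (40 of 52 clusters of 3, 14 of 19 of 4 and both of 5), where 2 of the windows of each cluster are end windows. Direction of transcription is not known for any of them, because the tables carry no strand.

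The 2 clusters of 5 windows and, of the 19 clusters of 4, the 3 with most reads are given here window by window. The cluster at 79575001 to 79580000 had 2361, 1048, 333, 291 and 373 RPM in replicate 1 and 2351, 1039, 329, 308 and 363 RPM in replicate 2. The cluster at 17960001 to 17965000 had 1272, 1096, 369, 275 and 335 RPM in replicate 1 and 1270, 1105, 387, 275 and 336 RPM in replicate 2. Both clusters of 5 thus had 2 high windows at their left end followed by 3 low ones, in both libraries. The cluster at 29526001 to 29530000 had 2737, 2463, 833 and 731 RPM in replicate 1 and 2718, 2442, 837 and 722 RPM in replicate 2. The cluster at 92902001 to 92906000 had 915, 3967, 575 and 373 RPM in replicate 1 and 927, 3955, 567 and 366 RPM in replicate 2. The cluster at 28154001 to 28158000 had 2822, 814, 560 and 299 RPM in replicate 1 and 2814, 836, 549 and 308 RPM in replicate 2. Of these 5, only the one at 92902001 had its highest window inside the cluster. The 2 windows that flanked the first of them had 0.269 and 6.63 RPM, and those that flanked the cluster at 28154001 had 5.91 and 117 RPM. Over both sides of all 314 clusters, the flanking window had a median of 113.5 reads and the next one out 30.5.

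Most clusters of 4 and 5 windows held 2 or more blocks of depth. A block was defined as the bases with a depth (reads over a base) of at least 1% of the cluster's peak depth, joined across lower stretches of up to 500 nt. Of the 19 clusters of 4 windows, 14 held 2 or more such blocks, and so did both clusters of 5, against 16 of 52 clusters of 3, 10 of 75 pairs and 5 of 166 single windows. The median of the longest lower stretch inside was 1005 nt in clusters of 4 and 209 nt in pairs. A longer cluster has more room for such a stretch. Blocks of a cluster may still share a transcript, and their count was not repeated at other bridging lengths. Over all clusters the block around the peak had a median length of 2002.5 nt (interquartile range 924 to 3261 nt), reached beyond 5000 nt in 21 clusters and stayed under 1000 nt in 88. Its length followed how far lower stretches were bridged, with a median of 1317.5 nt when up to 300 nt were joined. A block can reach beyond its cluster, and nearly the same stretch can be counted for 2 clusters. This was so for the clusters at 67646001 and 67649001, so the lengths are not all of separate blocks. The heavier side of a block's midpoint held a median of 76.8% of its depth (interquartile range 64.9 to 84.3%). This value cannot fall under 50%, and how far uneven patches alone raise it was not measured.

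The spacing of the clusters ran from 1 kb to over 2 Mb. The 313 gaps between consecutive clusters had a median of 218 kb and an interquartile range of 53 to 511 kb, with 25 gaps over 1000 kb. At the short end 15 gaps were of a single window, 32 were of 10 kb or less and 75 of 50 kb or less. Gaps include joints between scaffolds, whose places are not in the tables, so some of them do not measure distance on one chromosome.

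The single-window gaps differed widely in level. In 9 of the 15 the window between the clusters had 1000 or more reads, and in 1 it had 223 reads. In the other 5 it had 2 to 6 reads, so that separate abundant places lay about 1 kb apart across a nearly unread window. At 41324001 to 41325000, for example, 2 reads separated a window of 1564 and 1550 RPM (replicates 1 and 2) from one of 818 and 813 RPM. At 6569001 to 6570000, also with 2 reads, the window before had 572 and 550 RPM and the window after had 1636 and 1645 RPM. The drop from either side to the gap was far larger than the difference between the libraries. These examples were chosen after their values were seen.

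At the long end, abundant windows were missing over long stretches that still held reads. The longest gap, at 62405001 to 64843000, was 2438 kb long. It held 82868 reads, with 2675 in its highest window, and 706 of its windows had no read. The gaps at 31638001 to 33994000 (2356 kb) and 8049001 to 10337000 (2288 kb) held 87933 and 103232 reads, with 2811 and 2659 in their highest windows. In each of these 3 gaps the highest window lay close under the limit of 3000, so messenger RNA was read there too, at lower levels.

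**Figure D2:**
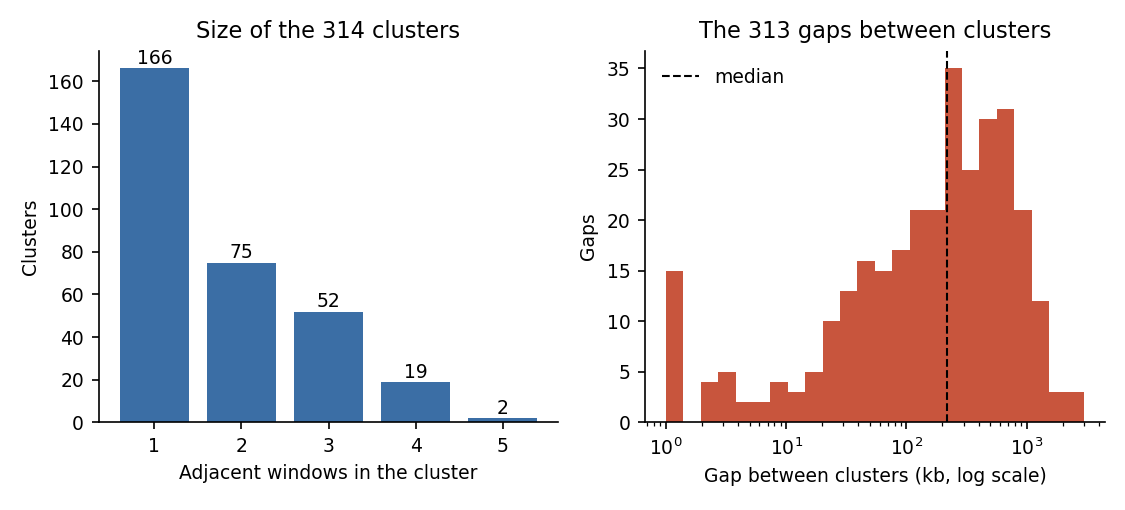
Left, number of clusters by the number of adjacent windows in them (bars from 0). Right, number of gaps between consecutive clusters by length in kb (log axis), with the median of 218 kb as a dashed line and the 15 gaps of 1 kb as a separate bar.

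Per 1 Mb of the assembly the windows were unevenly distributed. The 113 bins of 1 Mb (the last is incomplete) held a median of 4 windows (interquartile range 2 to 7, highest 16), and 11 bins held none. The fullest bins were 35 to 36 Mb and 38 to 39 Mb, with 16 windows each in 7 and 8 clusters. Next came 68 to 69 Mb and 69 to 70 Mb, with 15 each. In the bin at 38 to 39 Mb the abundant windows supplied 81.7% of the bin's reads, and over the bins with any the median was 52.7%, with a range of 6.10 to 84.7%. Over 10 Mb regions the share of abundant windows ran from 0.340 to 0.720% up to 100 Mb. It was 0.260% at 100 to 110 Mb and 0.173% in the last 2306 windows. Windows without a read were also most frequent there, at 40.8% and 53.7%, against at most 33.1% in the regions before 100 Mb. The part of those empty windows in the lower share was not tested.

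Levels fell steeply over the first 3 windows and then slowly towards those of the surrounding genome. The window directly before had a median of 1810 reads and the one directly after 1869, against 7046.5 in the abundant windows themselves. At 2 kb the medians were 84.5 and 59.5 reads, at 3 kb 24 and 22, at 5 kb 13 on both sides, and at 10 kb 9 on both sides. At 20 kb they were 8 and 9 reads. The fall had a similar course on both sides. The share of neighbours that were themselves abundant went from 43.7% at 1 kb through 19.9% at 2 kb and 6.27% at 3 kb to 0.717% at 10 kb.

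Windows of the next lower level fell off from a lower top to the same floor. The 812 windows with 1000 to 2999 reads had a median of 1551.5 reads, with 357.5 before and 438.5 after them at 1 kb, 16.5 and 21 at 4 kb, and 9 on both sides at 10 kb. Of these 812 windows 157 (19.3%) adjoined one of the 558, compared with 0.549% of all windows outside the 558. The 613 windows that adjoined the 558 had a median of 110 reads, and 54 of them had no read. All other windows had a median of 5.

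**Figure D3:**
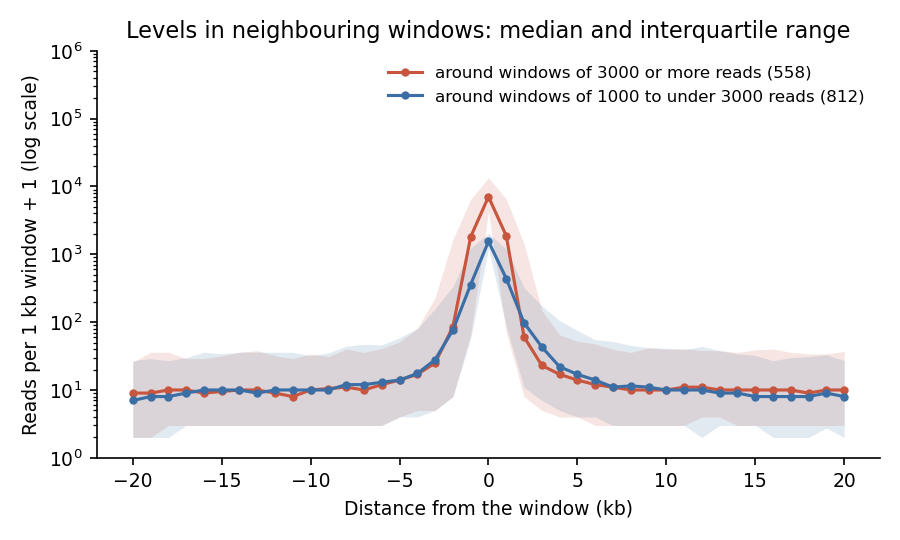
Reads per 1 kb window plus 1 (log axis) against distance in kb from windows with 3000 or more reads and from windows with 1000 to 2999 reads, as median (line) and interquartile range (band). Around the former the median fell from 7046.5 reads to 24 and 22 at 3 kb, and both lines met near 9 reads at 10 kb.

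The 2 sides of a window were seldom alike. The higher neighbour had a median of 69.3% of the window's own level (interquartile range 27.3 to 162%), while the lower neighbour had a median of 1.02%. In 278 windows (49.8%) one side was under 1% of the window's level, and in 219 the higher neighbour exceeded the window itself. In only 10 windows were both neighbours under 1%. The higher side was the one before in 274 windows and the one after in 284.

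A few windows stood alone on the genome. At 51587001 to 51588000 (rank 23, 3004 and 2994 RPM) 33495 reads began in the window, 1 read in the window before and none in the window after. At 62404001 to 62405000 the window had 1823 and 1822 RPM, and its neighbours held 3 and 1 reads against 20349 of its own. At 48408001 to 48409000 it had 2013 and 1995 RPM, and its neighbours held 2 and 7 reads against 22376. In these 3 places nearly all reads began within 1 kb, and the part at 10% or more of the peak depth was a single stretch of 333, 437 and 539 nt.

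Other windows lay beside a far higher neighbour. The window at 84898001 to 84899000 had 284 and 297 RPM, and the window after it stood at 1837% of its level. The windows at 96883001 and 38318001 had neighbours of 1496% and 1342% of their level. The first of the 3 had its peak at its last base, next to the higher window. The window at 96883001 had its peak at base 204 and 27.7% of bases at 10% or more of it. The window at 38318001 had its peak at base 1, with 23.6% of such bases and 3 low gaps (defined below). Both peaks thus lay away from the higher window that followed. The peak at base 1 adjoined the window before it, which had 1823 reads, so it need not be separate from that window. In 62 of the 558 windows the peak depth was less than 35 nt from a window end, and 41 of these had a neighbour higher than themselves. Without the 62, the median of the higher neighbour was 58.5% in place of 69.3%.

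Depth inside the windows was concentrated on less than the full 1 kb. The peak depth was a median of 4.96 times the mean depth of the window (interquartile range 3.70 to 7.54), over 10 times in 74 windows and under 3 times in 57. A median of 42.05% of bases (interquartile range 25.2 to 62.9%) had at least 10% of the peak depth, and the longest unbroken stretch of such bases had a median of 288.5 nt. A median of 33.5% of bases had no read over them at all. In 50 windows every base was covered, and in 174 more than 50% of the bases were not. Each library alone gave the same picture, with a median peak to mean ratio of 4.98 in both.

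Among the 558 windows shape varied with level in no single direction. Windows below the limit had lower median peak to mean ratios and more bases at 10% or more of the peak. Spearman's rho between reads and the peak to mean ratio was -0.08 and between reads and the share of bases at 10% or more of the peak 0.06 across the 558 windows, which share libraries and, within clusters, transcripts. Windows from 3000, 5000, 10000 and 30000 reads upwards, each class ending where the next begins, had median ratios of 4.81, 5.70, 4.76 and 4.93. Below the limit, windows of 1000 to 2999 and of 300 to under 1000 reads had 4.22 and 4.11. The share of bases at 10% or more of the peak was 43.7, 34.8, 43.7 and 46.7% in the 4 higher classes and 55.6 and 58.5% in the 2 lower ones. Bases without any read went another way: their median was 29.1, 41.7, 36.7 and 21.9% in the 4 higher classes and 26.35 and 25.7% in the 2 lower ones. Windows covered at every base made up 11.9, 6.67, 6.51 and 16.1% of the higher classes and 10.7 and 10.97% of the lower ones. No test of these differences was made.

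Stretches of near-zero depth with high depth on both sides were frequent. A low gap was a run of at least 50 nt under 1% of the window's peak depth with bases of at least 10% of the peak on either side in the same window. In all, 252 windows (45.2%) held at least 1 low gap and 100 held 2 or more, up to 4. The 384 low gaps had a median length of 175.5 nt (interquartile range 131 to 240 nt), and 304 of them (79.2%) were 100 to 400 nt long. Gaps that crossed a window end were not counted, which limits their length. In the same 4 classes from 3000 reads upwards, low gaps were present in 34.2, 53.3, 49.1 and 48.4% of windows, and among windows of 1000 to 2999 reads in 37.8%.

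Reads that matched only after trimming were most frequent where the depth was broken up. A read across a splice junction matches the genome over its full length only if the part beyond the junction fits within the 2 allowed mismatches. The authors' second alignment round can keep a part of at least 21 nt of such a read as a trimmed alignment. Leftover reads with more than 2 mismatches were trimmed in the same way, so the trimmed share does not count junction reads alone. The trimmed share per window had a median of 7.58% (interquartile range 4.50 to 14.8%, range 2.11 to 66.0%). The median was 4.90% in the 306 windows without a low gap, 11.1% in the 152 with 1 and 18.7% in the 100 with 2 or more, with interquartile ranges of 3.75 to 7.84%, 6.81 to 17.1% and 12.5 to 24.1%. Across the 558 windows Spearman's rho between the trimmed share and the share of uncovered bases was 0.62, a description over windows that share libraries and transcripts. Pooled over reads, the trimmed share was 9.38% in the 558 windows and 9.31% outside them. Per window, the median share in the classes from 3000, 5000, 10000 and 30000 reads upwards was 6.77, 11.1, 7.02 and 5.01%, against 5.13% in windows of 1000 to 2999 reads and 5.24% in those of 300 to under 1000. No test of these differences was made.

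The most trimmed windows consisted of very short patches. They were chosen after their values were seen. At 96724001 to 96725000, with 309 RPM in both libraries, 64.6% of reads in replicate 1 and 67.3% in replicate 2 were trimmed, and the longest well covered stretch was 53 nt. At 83599001 to 83600000, with 307 and 313 RPM, the shares were 46.6 and 48.6% and the stretch was 74 nt. At 72536001 to 72537000, with 599 and 562 RPM, they were 46.7 and 45.7% and the stretch was 113 nt. All 3 lay in clusters of 4 windows, between neighbours that were abundant too. In the whole set 25 windows had over 30% trimmed reads, and 173 had under 5%.

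**Figure D4:**
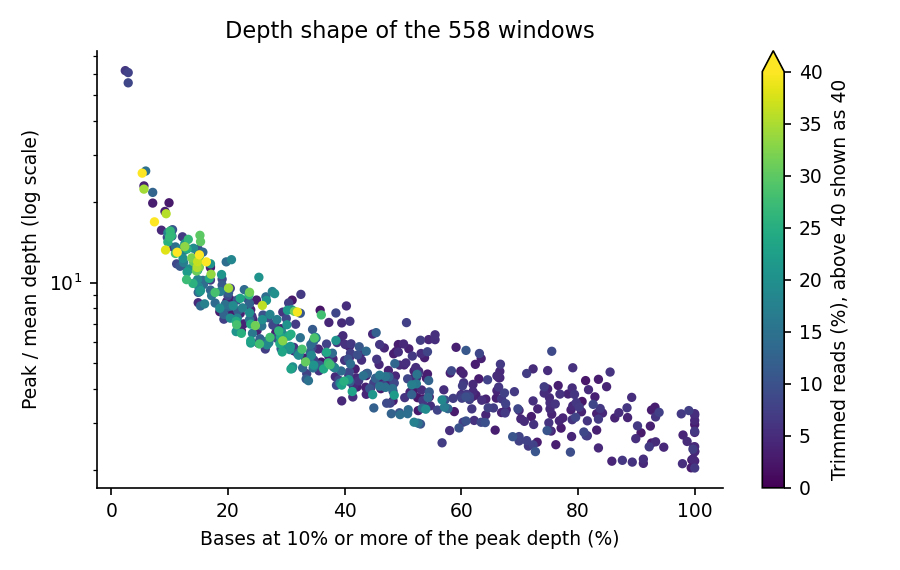
Peak depth over mean depth (log axis) against the percentage of bases at 10% or more of the peak depth, 1 point per window for the 558 windows, coloured by the percentage of trimmed reads. The windows with the highest trimmed share lie among those covered over few bases, and the 3 points at the upper left are windows whose peak was at their last base.

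The extremes of shape were of different kinds. The 3 most peaked windows, at 16017001 to 16018000, 84898001 to 84899000 and 101618001 to 101619000, had peak to mean ratios of 61.7, 60.7 and 55.6. In replicates 1 and 2 the ratios were 61.4 and 62.0, 60.0 and 61.3, and 56.7 and 54.6. All 3 had their peak at base 1000, the last of the window, and only 24 to 29 bases at 10% or more of it, beside following windows of 3443, 5338 and 2893 RPM. They are thus the first bases of a patch that continues in the next window. The 3 flattest windows, at 69995001 to 69996000, 26781001 to 26782000 and 47373001 to 47374000, had ratios of 2.03, 2.04 and 2.11 and were covered at every base. They had 496 and 492, 292 and 300, and 561 and 549 RPM in replicates 1 and 2, no low gap, and trimmed shares of 6.46, 3.21 and 5.44%. Each was the lower window of a pair.

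**Figure D5:**
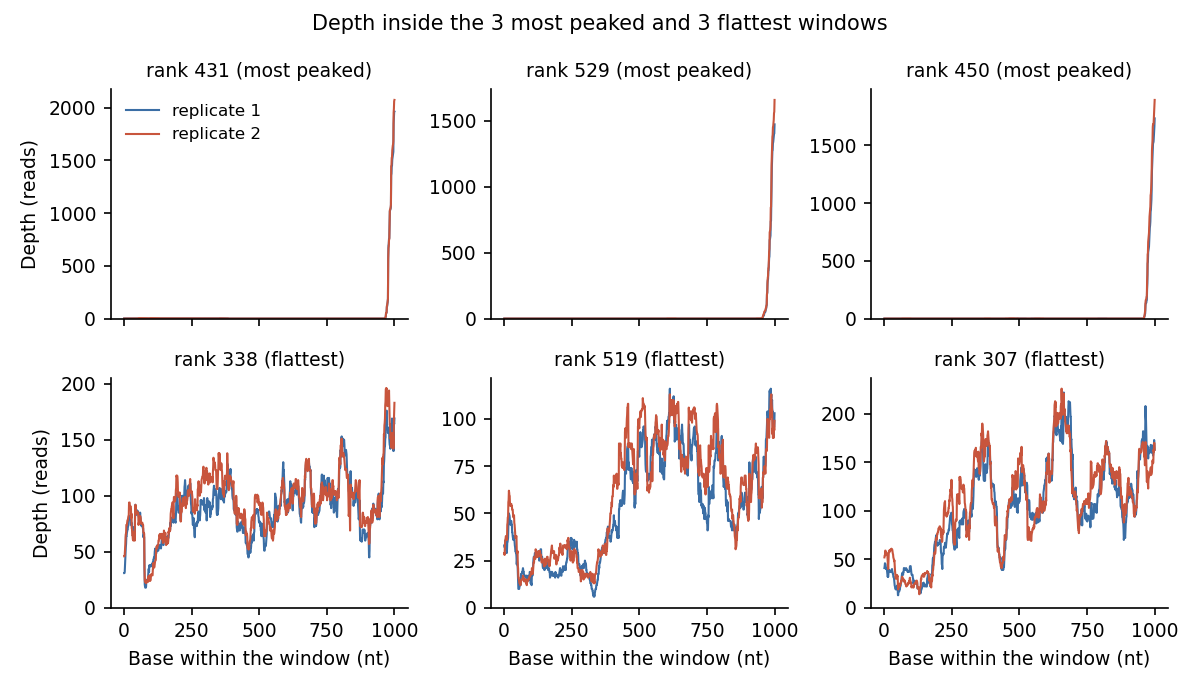
Depth in reads (linear axis from 0, own scale in each panel) at each of the 1000 bases of the 3 most peaked (top) and 3 flattest (bottom) windows, named by their rank, with replicates 1 and 2 as separate lines. The most peaked windows rise only at their last 24 to 29 bases, whereas the flattest are covered throughout, and the lines of both libraries run together.

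Read starts were scattered very unevenly within well covered bases, and over whole windows their pattern was similar in both libraries. Over bases at 10% or more of the peak depth, the coefficient of variation of reads per start position had a median of 156%. Counting error alone at the same mean gives 20.7%, and the coefficient was above counting error in all 558 windows. Depth itself changes over these bases, from 10% of the peak up to the peak, which raises the coefficient too. How much of it comes from single start positions was not measured. Over all 1000 positions of a window, covered or not, a median of 42.55% were the start of any read. The most used position took a median of 3.48% of a window's reads (highest 33.1%). Across the 1000 positions of a window the Pearson correlation of read starts between the libraries had a median of 0.972 (interquartile range 0.932 to 0.985, lowest 0.731), and 469 windows were above 0.9. Bases without reads add to this correlation. Directly adjacent positions had a median correlation of 0.17 within well covered bases (interquartile range 0.12 to 0.22). These bases are only a part of the 1000 positions, so this value cannot be set directly against the one between the libraries. The peak fell on the same base in both libraries in 313 windows (56.1%) and within 35 nt in 500.

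The exact binomial test was also run on each start position with at least 10 reads, 156743 in all, of which 113705 lay in the 558 windows. It called 0 positions after Benjamini-Hochberg adjustment, 0% of those tested, and 4480 of the positions in the 558 windows (3.94%) and 3.33% of the others had an unadjusted p under 0.05. The position with the lowest p in these windows, 29528992, was the start of 5 reads in replicate 1 and 32 in replicate 2 (exact binomial test, adjusted p = 1). At position 26924870 the counts were 530 and 441, also with an adjusted p of 1. At this depth no tested start position in the abundant windows was called different between the libraries. Positions with fewer than 10 reads were not tested, and the lack of calls does not show that the libraries were the same.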

How the data were processed

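The deposited tables of the 2 libraries give, per the authors' deposited readme, the position, length and raw count of uniquely aligned reads. The aligner was SOAP, whose version is not given in the sources used here. The genome was assembly version 3.1, unmasked. Up to 2 mismatches were allowed, and leftover reads were trimmed base by base, down to 21 nt, to a perfect match. Reads from repeated sequence are missing. Positions run along joined scaffolds and are printed as deposited. They were read as the leftmost base, because trimmed alignments of at least 6 lengths ended together at 5349 positions under that reading and at 926 under the opposite one.

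Reads were counted in the 1 kb window of their start and scaled to 1000000 (RPM), 0.0895 RPM per read over both libraries. Depth per base was built from start and length. Two-sided exact binomial tests (scipy 1.17.1, threshold 0.05) compared the libraries at the ratio of TMM-scaled totals (edgeR 4.0.16), with Benjamini-Hochberg adjustment over all features with at least 10 reads. DESeq2 1.42.0 size factors were an alternative. With 1 group no model with replicate error could be fitted. The test was tried on simulated counts that carried counting error only, which does not check it against any further spread. Windows were named by rank, cluster size, gap, bin, shape, neighbour and limit. The windows, measures and lists were chosen with earlier results of these data known. No sequence or gene is given, since no genome of version 3.1 was used here. PCR reads are not independent molecules, so counts carry more than counting error.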

Additional observations from a re-analysis of the deposited data

How the results depend on the processing

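With window edges moved by 500 positions the abundant windows numbered 582 in 347 clusters, with a median gap of 190.5 kb, a higher neighbour at 60.1%, 43.5% of bases at 10% or more of the peak and a peak to mean ratio of 4.88. A limit of 2000 reads gave 135 kb, 60.7%, 46% and 4.76, and one of 5000 reads gave 365 windows, 263 kb, 59.9% and 40.9%. Sharing reads by covered bases gave 68.4% for the higher neighbour. Leaving out 1 library, with the limit scaled, gave 553 to 558 windows, 313 to 315 clusters, gaps of 213.5 to 218.5 kb, 68.6 to 68.9%, 41.9 to 42.2% and ratios of 4.96 to 5.03. Chosen after seeing the data, joining clusters across 1 or 10 windows gave 299 or 282 clusters and gaps of 227 or 237 kb, bases at 5 or 20% of the peak were 44% or 36.15%, and without windows peaking within 35 nt of an end the higher neighbour was 58.5%. The median block was 1531.5 nt at a limit of 5000 reads, and 1317.5 or 2667 nt with 300 or 1000 nt bridged. The tests between libraries called 0 windows under 5 alternatives and 0 start positions under 4. Leaving out a library leaves nothing to compare. Windows near the limit of 3000 reads change sides by counting error, and low gaps near 1% of a shallow peak rest on few reads. No paired analysis was possible because the study holds a single group here.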
